A study of Mus musculus with 10 samples.

Results

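Genes that carry out or control magnesium reabsorption in the kidney were examined in mice with 1 mutant copy of Rragc. The set holds 10 genes listed for their known role in magnesium handling: the channels Trpm6 and Trpm7, the hormone Egf and its receptor Egfr, the transporter-related genes Cnnm2 and Slc41a3, the sodium pump subunit Fxyd2, the potassium channels Kcnj10 and Kcnj16, and Pvalb. All 10 were among the 13837 genes with values, and 9 of them were among the 13197 genes that passed a filter on low values, with Slc41a3 the exception. Of the 9, 4 were lower in the mutant kidneys (Pvalb, Trpm6, Egf and Trpm7), none was higher, and 5 did not pass the test. The genes were chosen with earlier results of these data known.

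Most filtered magnesium is taken back between cells in the thick ascending limb, while the distal convoluted tubule sets the final amount through a regulated route across the cell. There magnesium enters through an apical channel made by TRPM6 together with TRPM7, EGF made in the tubule stimulates the channel through its receptor, and potassium channels and the sodium pump on the other side keep up the voltage that draws magnesium in. RagC and RagD are lysosomal GTPases that pass the amino acid signal to mTORC1, and in people mutations of RagD cause renal magnesium wasting with or without cardiomyopathy, while mutations of RagC have been linked to cardiomyopathy.

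Whole kidneys came from 5 Rragc+/+ and 5 RragcS74N/+ mice of 3 months, with 1 library per mouse, and the control mice carried no edited allele. RragcS74N/+ mice carry the S74N substitution on 1 Rragc allele in every cell, introduced by CRISPR editing on a C57BL/6 background, so no single cell type drives the genotype. The labels do not give sex, but the 4 Y-linked genes with values summed to 658 to 762 normalized counts in Rragc+/+ and 725 to 838 in RragcS74N/+ mice. Values are 3′ tag counts that the authors divided by a size factor for each library, called normalized counts here; 1 read is taken per transcript end, so the levels of different genes were compared without division by length.

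Depth ran from 6501552 to 7856363 reads in Rragc+/+ and from 6872310 to 7996087 in RragcS74N/+ libraries. The numbers in the library codes leave a gap between 2 blocks, whose meaning the labels do not give: the low-numbered block held 2 Rragc+/+ mice and 1 RragcS74N/+ mouse, and the high-numbered block 3 and 4. The share of reads on mitochondrial genes was 24.5% to 30.1% in Rragc+/+ and 23.9% to 27.1% in RragcS74N/+ libraries. Within the high-numbered block it did not overlap between the genotypes, at 28.7% to 30.1% against 23.9% to 25.8%, and its part in the results of that block was not tested. Of 6 adipose markers, 2 (Fabp4 and Cfd) had values, and their sum was 1411 in RragcS74N/+ mouse 1 and 4375 in RragcS74N/+ mouse 5, against 94.6 to 259 in the other 8 kidneys. Results are therefore also given with these 2 mice left out, a choice made after the data were seen. None of 12 skeletal muscle markers had a value to analyse, and 1 of 7 adrenal markers did (Akr1b7, 13.6 to 32.9 in Rragc+/+ and 21.8 to 53.5 in RragcS74N/+). In whole kidney, fewer cells of a type and less RNA per cell cannot be told apart.

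The 4 of 9 tested members that passed at an adjusted p under 0.05 (limma with a mean-variance trend, Benjamini-Hochberg over all genes tested) were all lower, while 2.02% of all tested genes were lower and 1.67% higher by the same rule. In these 4 genes every RragcS74N/+ mouse lay under every Rragc+/+ mouse, a pattern held by 2.71% of tested genes. The members were chosen with earlier results of these data known, so these shares are not an independent comparison. The median log2 fold change (RragcS74N/+ minus Rragc+/+, on log2 of the normalized count plus 1) was -0.36 over the 9 members and 0.00046 over all tested genes. With both mice of raised adipose markers left out, 3 members passed.

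**Figure D1:**
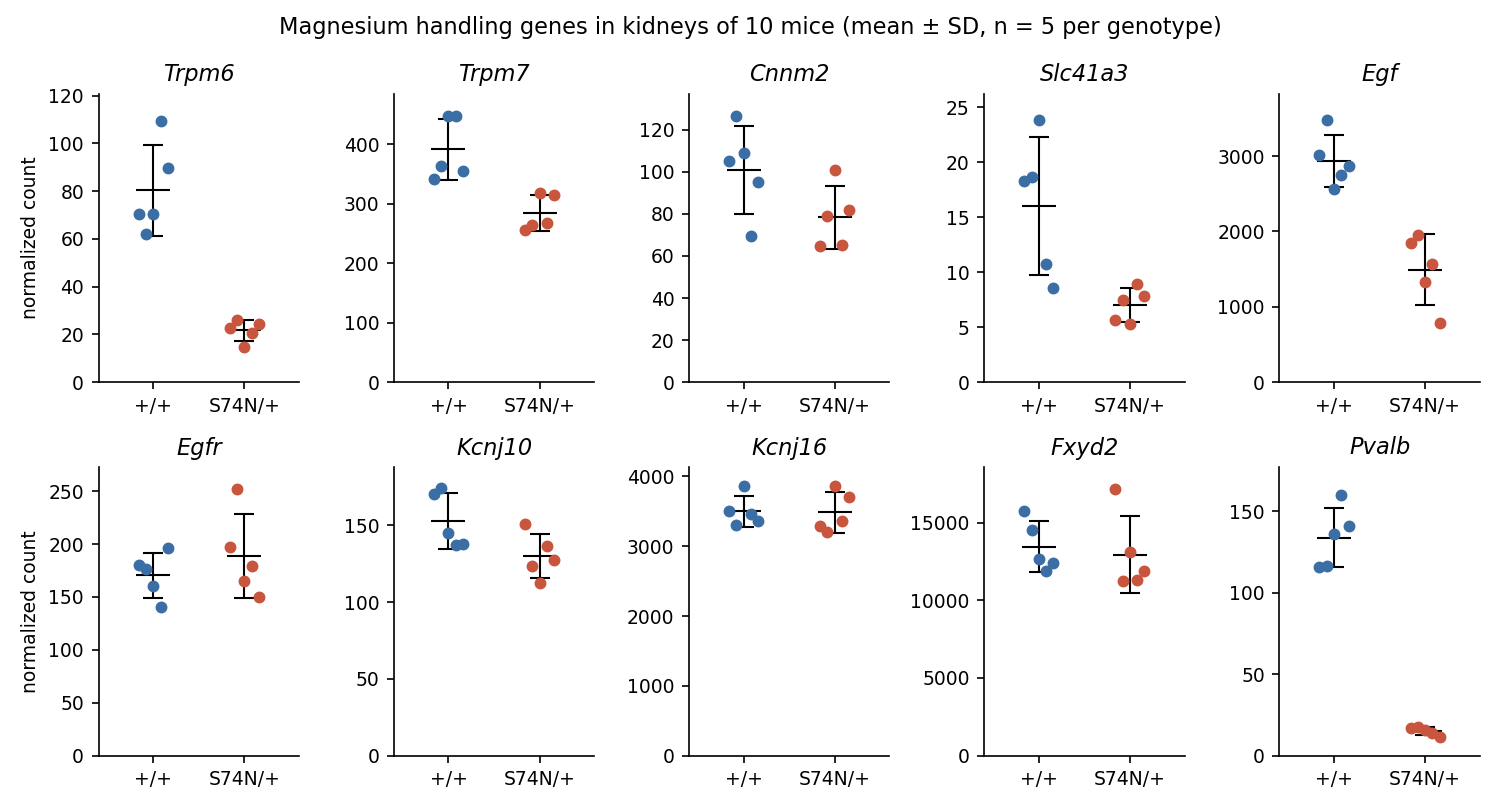
Normalized counts (vertical axes, from 0) of the 10 magnesium handling genes in each kidney, by genotype on the horizontal axes; points are mice, bars the mean and SD (n = 5). Pvalb, Trpm6, Egf and Trpm7 show RragcS74N/+ mice wholly under Rragc+/+ mice, while Fxyd2 and Kcnj16 overlap.

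Trpm6, the magnesium channel subunit of the distal convoluted tubule, was the lowest channel transcript and fell most among the channels. Its normalized counts were 70.3, 62.3, 70.3, 109 and 89.7 in Rragc+/+ mice 1 to 5 and 22.8, 26.02, 14.7, 20.8 and 24.3 in RragcS74N/+ mice 1 to 5. The lowest Rragc+/+ mouse stood well above the highest RragcS74N/+ mouse, and no mouse set the difference on its own. The mean fell from 80.4 ± 19.1 to 21.7 ± 4.37 (SD, n = 5 each), or 27.0% of the Rragc+/+ level, a log2 fold change of -1.84 (SE 0.20, 95% interval -2.25 to -1.42, adjusted p = 1.74e-05 by limma). Within the high-numbered block the log2 fold change was -2.02 (adjusted p = 0.000658 by limma), and in the low-numbered block the kidneys read 70.3 and 62.3 against 22.8. With both adipose-marked mice left out it was -1.93 (adjusted p = 7.23e-05 by limma). The RragcS74N/+ values rest on 14 to 28 reads per library.

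Trpm7, a broadly expressed channel-kinase that forms joint channels with TRPM6, changed less. Its normalized counts were 342, 364, 447, 448 and 356 in Rragc+/+ and 255, 265, 317, 267 and 315 in RragcS74N/+ mice. The highest RragcS74N/+ mice came close to the lowest Rragc+/+ mouse without overlap. The mean went from 391 ± 51.8 to 284 ± 29.9, a log2 fold change of -0.46 (SE 0.11, 95% interval -0.68 to -0.23, adjusted p = 0.0208 by limma). The call was not stable: it passed in 5 of 10 fits that left out 1 mouse, with adjusted p of 0.0605 and 0.0809 by limma without Rragc+/+ mice 3 and 4, and 0.0619, 0.0502 and 0.0553 without RragcS74N/+ mice 1, 2 and 4. It gave 0.0537 by limma with both adipose-marked mice left out, 0.0755 without the trend, and 0.0439 within the high-numbered block, where the log2 fold change was -0.51.

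Trpm6 was also lower relative to its partner. Trpm6 amounted to 15.7% to 25.2% of the Trpm7 count in Rragc+/+ kidneys (median 20.5%) and to 4.64% to 9.82% in RragcS74N/+ kidneys (median 7.78%). The log2 ratio differed by -1.38 with no overlap (two-sided exact permutation test, unadjusted p = 0.00794, the smallest that 5 against 5 mice can give). This ratio was chosen after the values of both genes were seen.

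Egf, the precursor of the growth factor that stimulates TRPM6, was among the 3 most abundant members. Its normalized counts were 3019, 3479, 2569, 2743 and 2868 in Rragc+/+ and 1849, 1952, 1326, 1565 and 782 in RragcS74N/+ mice. All RragcS74N/+ mice were under the Rragc+/+ range, and mouse 5, with the highest adipose markers, was the lowest. The mean fell from 2935 ± 346 to 1495 ± 468, or 50.9% of Rragc+/+, a log2 fold change of -1.04 (SE 0.18, 95% interval -1.41 to -0.66, adjusted p = 0.00207 by limma). Without RragcS74N/+ mouse 5 it was -0.82 (adjusted p = 0.000195 by limma), with both adipose-marked mice left out -0.87 (adjusted p = 0.000304 by limma), and within the high-numbered block -1.03 (adjusted p = 0.0263 by limma).

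Egfr, the receptor, did not pass the test. Its normalized counts ran from 140.4 to 196 (mean 171 ± 21.3) in Rragc+/+ and from 149.8 to 251.8 (mean 189 ± 39.4) in RragcS74N/+ kidneys, with a log2 fold change of 0.13 (95% interval -0.16 to 0.42, adjusted p = 0.73 by limma). The ranges overlapped through most of their length. Among 18 other tested ligands, receptors, sheddases and signalling genes of the EGF family, limma called none higher and 1 lower, Dusp6, a phosphatase induced by and acting on ERK, while edgeR and DESeq2 each called 2 genes. Dusp6 went from 239 ± 22.1 to 155 ± 26.5 normalized counts (log2 fold change -0.64, SE 0.13, adjusted p = 0.00624 by limma). Nrg4, an ERBB4 ligand named after its values were seen, read 11.3 ± 1.74 and 24.3 ± 9.23 normalized counts without overlap (log2 fold change 0.98, adjusted p = 0.0543 by limma). The median log2 fold change of the 18 was -0.03.

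Cnnm2, a membrane protein of the basolateral side whose mutations cause dominant hypomagnesemia, lay lower in RragcS74N/+ kidneys without passing the test. Its values were 105, 126, 109, 69.7 and 95.03 normalized counts in Rragc+/+ and 64.5, 79.0, 101, 65.2 and 81.7 in RragcS74N/+ mice. The ranges overlapped, with 2 RragcS74N/+ mice under the lowest Rragc+/+ mouse. The log2 fold change was -0.36 (SE 0.17, 95% interval -0.71 to -0.0052, adjusted p = 0.314 by limma), and -0.15 within the high-numbered block.

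Slc41a3, a magnesium carrier linked to the distal convoluted tubule, was near the detection limit. It read 18.3, 18.7, 23.8, 10.7 and 8.54 normalized counts in Rragc+/+ and 5.69, 7.43, 5.25, 8.90 and 7.78 in RragcS74N/+ mice. Rragc+/+ mouse 5 fell inside the RragcS74N/+ range, so the groups overlapped. With 10 normalized counts reached in 4 Rragc+/+ and 0 RragcS74N/+ mice, it missed the filter of at least 10 in at least 5 mice. In the fit without a filter its log2 fold change was -1.02 (SE 0.33, adjusted p = 0.113 by limma), and the two-sided exact permutation test gave an unadjusted p = 0.0159, among 10 such tests on the members.

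The members that set the driving force for magnesium entry did not pass the test. Whole-kidney values do not show their levels within the distal convoluted tubule. Kcnj10, a basolateral potassium channel of the distal tubule, read 171, 174, 145, 137 and 138 normalized counts in Rragc+/+ and 151, 124, 112, 136 and 127 in RragcS74N/+ mice. Of the RragcS74N/+ mice, 4 were under every Rragc+/+ mouse and mouse 1 was inside their range. Its log2 fold change was -0.23 (SE 0.12, 95% interval -0.48 to 0.02, adjusted p = 0.377 by limma).

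Kcnj16, which joins KCNJ10 in the same channel, gave the narrowest interval of the members. It ran from 3299 to 3859 normalized counts in Rragc+/+ and from 3199.99 to 3866 in RragcS74N/+ kidneys, with a log2 fold change of -0.01 (SE 0.08, 95% interval -0.18 to 0.16, adjusted p = 0.979 by limma). The genotypes overlapped almost fully, and the interval leaves room for 88.6% to 112% of the Rragc+/+ level. Kcnj10 amounted to 3.76% to 5.28% of Kcnj16 in Rragc+/+ and 2.91% to 4.59% in RragcS74N/+ kidneys (two-sided exact permutation test, unadjusted p = 0.167).

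Fxyd2, the gamma subunit of the sodium pump, was the most abundant member, at 13442 ± 1642 normalized counts in Rragc+/+ and 12944 ± 2490 in RragcS74N/+ kidneys. The groups overlapped, with the single highest value, 17186, in RragcS74N/+ mouse 1. Its log2 fold change was -0.07 (95% interval -0.31 to 0.18, adjusted p = 0.856 by limma). Of 10 other tested pump subunits and FXYD genes, limma called none higher and 1 lower, with 2 called by edgeR and 2 by DESeq2. The lower one was Fxyd6, another pump regulator, from 72.0 ± 17.2 to 45.4 ± 4.83 (log2 fold change -0.63, adjusted p = 0.0478 by limma).

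Pvalb, a calcium-binding protein that marks the early distal convoluted tubule, had the widest change of the members. Its normalized counts were 116, 117, 136, 159.7 and 141 in Rragc+/+ and 17.1, 17.7, 15.8, 13.8 and 11.7 in RragcS74N/+ mice. The mean of the RragcS74N/+ mice was 8.80-fold lower, a log2 fold change of -3.06 (SE 0.17, 95% interval -3.41 to -2.71, adjusted p = 5.08e-09 by limma). The RragcS74N/+ values rest on 12 to 19 reads per library against 120 to 149 in Rragc+/+. With both adipose-marked mice left out the log2 fold change was -3.00, and within the high-numbered block -3.23 (adjusted p = 1.64e-08 and 3.77e-06 by limma).

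**Figure D2:**
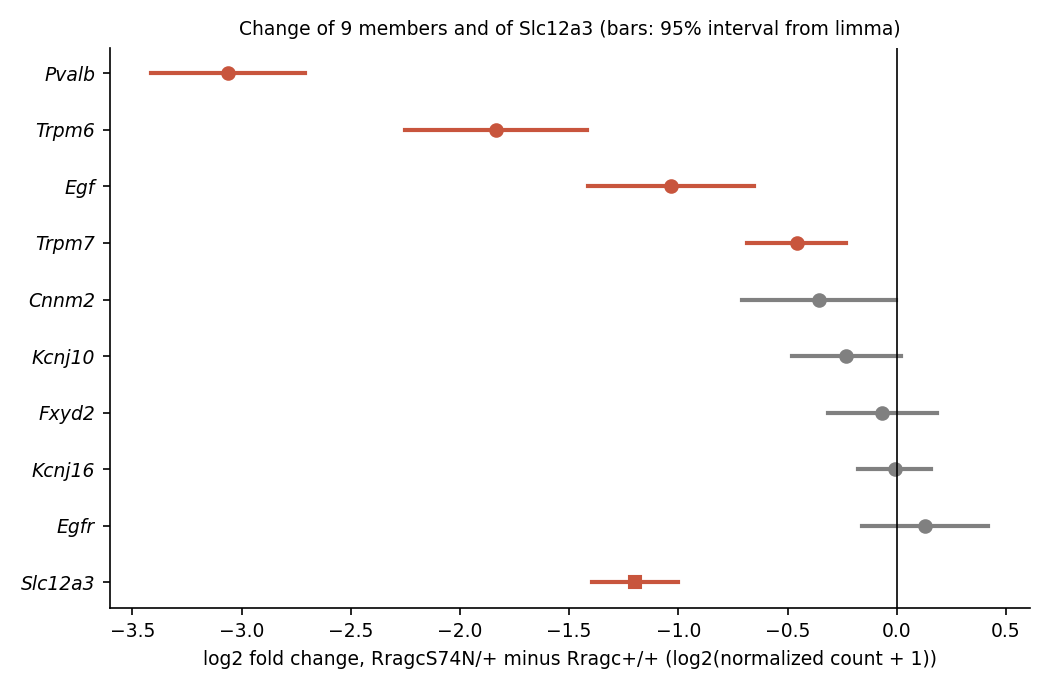
Log2 fold change, RragcS74N/+ minus Rragc+/+ (horizontal axis), of the 9 tested members and of Slc12a3 (square), with 95% limma intervals as bars; red marks an adjusted p under 0.05. Pvalb (-3.06), Trpm6 (-1.84), Egf (-1.04) and Trpm7 (-0.46) lie wholly under 0, and Slc12a3 lies between Trpm6 and Egf at -1.20.

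The order of levels shifted at its lower end. In Rragc+/+ kidneys the normalized count fell in the order Fxyd2, Kcnj16, Egf, Trpm7, Egfr, Kcnj10, Pvalb, Cnnm2, Trpm6 and Slc41a3. Neighbours whose ranges overlapped were Kcnj16 and Egf, and each step from Egfr to Trpm6. In RragcS74N/+ kidneys Pvalb moved to ninth place, after Trpm6 with which it overlapped, Egf no longer overlapped Kcnj16, and Cnnm2 stood clear of Trpm6.

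The bases before the RefSeq start of the 4 genes that fell are shown so that the sequences of these genes can be set side by side. Egf and Pvalb each have 2 such starts among the windows, and the most upstream one is shown for each. By exact match, 0 of 4 annotated GENCODE transcripts of Trpm6 and 0 of 11 of Trpm7 begin at the start shown. For Egf 0 of 9 begin at the start shown and 1 at the other. For Pvalb 1 of 2 begins at each start. The 150 bases end at the base before the start, are written along the coding strand, and come from RefSeq on GRCm38.p6, a different build from the GRCm39 to which the authors aligned. Capitals mark the E-box CACGTG, the core of the motif bound by TFEB, a lysosomal transcription factor regulated through RagC and RagD.
Trpm6, chr19:18749580-18749729, strand plus: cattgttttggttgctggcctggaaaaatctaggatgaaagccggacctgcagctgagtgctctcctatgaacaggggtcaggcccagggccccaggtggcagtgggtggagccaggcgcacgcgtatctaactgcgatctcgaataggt
Trpm7, chr2:126876262-126876411, strand minus: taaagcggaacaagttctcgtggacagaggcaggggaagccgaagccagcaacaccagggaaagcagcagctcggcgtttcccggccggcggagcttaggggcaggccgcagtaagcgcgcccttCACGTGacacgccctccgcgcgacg
Egf, chr3:129755323-129755472, strand minus: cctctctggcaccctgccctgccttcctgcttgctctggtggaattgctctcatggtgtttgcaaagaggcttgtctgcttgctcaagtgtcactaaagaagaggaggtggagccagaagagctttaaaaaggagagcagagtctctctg
Pvalb, chr15:78206401-78206550, strand minus: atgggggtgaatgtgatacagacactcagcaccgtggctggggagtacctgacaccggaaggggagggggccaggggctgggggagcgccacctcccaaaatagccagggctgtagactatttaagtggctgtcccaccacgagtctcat
Of these 4 stretches the one of Trpm7 holds the E-box, 25 bases before the start, and its window of 300 bases (250 before to 50 after the start) holds another 16 bases after it. Windows were available for 9 of 10 members, Fxyd2 having none, with 14 windows in all. The E-box, read on both strands, was in the windows of 2 members (Trpm7 and Slc41a3, 213 bases before the start), and in 7.15% of all 32851 windows. The longer TCACGTG, which overlaps the E-box, was in Trpm7 alone among the members and in 3.77% of all windows. The CLEAR palindrome was in no member window. Which start is used in these kidneys cannot be read from 3′ tags.

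The members were next set against Slc12a3, the sodium chloride cotransporter that defines the distal convoluted tubule. In whole kidney these ratios are not comparisons within that segment. Slc12a3 went from 2698 ± 234 to 1179 ± 140.4 normalized counts (log2 fold change -1.20, SE 0.094, adjusted p = 2.61e-07 by limma), with no overlap. Relative to Slc12a3 the median of all genes shifts by 1.2 on the log2 scale, so each difference here is read against that shift. With each mouse scaled to Slc12a3 (the rescaled table), 12863 of 13196 genes passed. Its adjusted p-values are therefore not comparable with those of the main fit.

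For Egf no difference from Slc12a3 passed the test. It was 86.4% to 136% of the Slc12a3 count in Rragc+/+ and 83.1% to 152% in RragcS74N/+ kidneys, overlapping (log2 difference 0.16, adjusted p = 0.291 by limma on the rescaled table). Trpm6 fell further than Slc12a3, from 2.36% to 4.22% of it down to 1.27% to 2.58% (log2 difference -0.64, adjusted p = 0.0104 by limma on the rescaled table), with overlapping ranges. Pvalb was lower still, from 3.97% to 6.16% down to 1.10% to 1.38%, without overlap (log2 difference -1.86, adjusted p = 1.99e-09 by limma on the rescaled table). Trpm7, Egfr, Cnnm2, Fxyd2, Kcnj10 and Kcnj16 lay higher against Slc12a3, by 0.74 to 1.33 on the log2 scale.

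**Figure D3:**
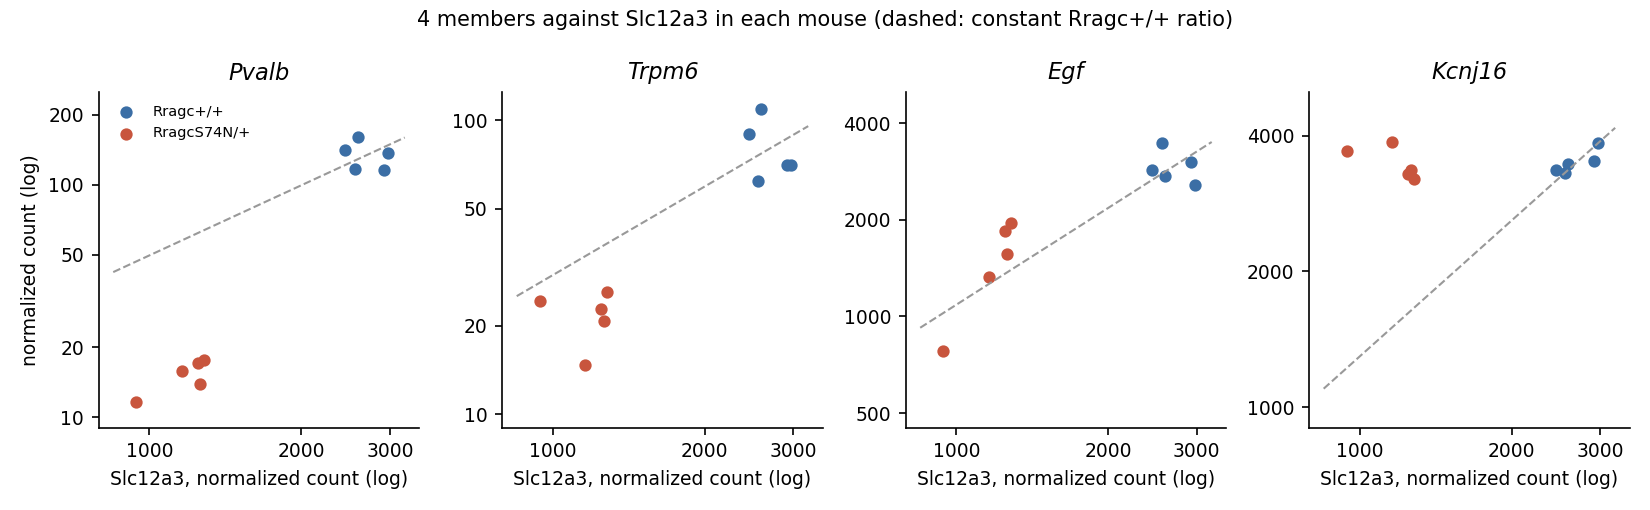
Normalized counts of Pvalb, Trpm6, Egf and Kcnj16 (vertical, log axes) against Slc12a3 (horizontal, log axis) in each of 10 mice; dashed lines mark the ratio of the Rragc+/+ means. RragcS74N/+ mice lie under the line for Pvalb and Trpm6, on both sides of it for Egf and above it for Kcnj16.

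Other markers of the distal convoluted tubule also lay lower in RragcS74N/+ kidneys. Of 11 tested distal convoluted tubule markers limma called none higher and 6 lower (Slc12a3, Klhl3, Prox1, Emx1, Wnk4 and Tmem52b), against 5 called by edgeR and 7 by DESeq2. All 11 had a negative log2 fold change, and the median was -0.43. Klhl3, which targets WNK kinases for degradation, fell by 1.03 on the log2 scale (adjusted p = 3.07e-06 by limma), and Wnk4, its substrate, by 0.43 (adjusted p = 0.0354 by limma). Prox1, a transcription factor of this segment, fell by 0.70 (adjusted p = 0.0455 by limma). The summed level of the list was 8154 to 9339 in Rragc+/+ and 4621 to 6303 in RragcS74N/+ kidneys. Its part in the changes of Trpm6, Egf and Pvalb was not tested.

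In the late distal convoluted and connecting tubule list of 10 tested genes, limma called 1 lower, Pgam2, a glycolytic enzyme (log2 fold change -0.71, adjusted p = 0.00115 by limma), and none higher, while edgeR called 1 gene and DESeq2 2. The median was -0.14. Scnn1g, a subunit of the epithelial sodium channel named after its values were seen, lay higher in RragcS74N/+ kidneys without overlap but did not pass (log2 fold change 0.66, adjusted p = 0.0502 by limma). Its calcium transport genes Calb1, Trpv5 and S100g had log2 fold changes of -0.09, -0.25 and -0.13 and did not pass.

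In the thick ascending limb, where most magnesium is reabsorbed between cells, 4 of 12 tested markers were lower, 1 was higher, and the median was -0.25. Umod, the uromodulin made there, went from 22917 ± 3438 to 11569 ± 2214 normalized counts (log2 fold change -0.999, adjusted p = 0.000198 by limma). Ptger3, a prostaglandin receptor, had a log2 fold change of -1.63 (adjusted p = 3.68e-06 by limma). The summed list was 30256 to 39369 in Rragc+/+ and 14179 to 23187 in RragcS74N/+ kidneys.

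Cldn16, the claudin of the paracellular magnesium pathway, moved the other way. It read 169, 142, 107, 103 and 106 normalized counts in Rragc+/+ and 241, 251.8, 194, 231 and 179 in RragcS74N/+ mice. Every RragcS74N/+ mouse was above every Rragc+/+ mouse, with a log2 fold change of 0.82 (SE 0.15, adjusted p = 0.0028 by limma). Its partner Cldn19 had a log2 fold change of 0.24 and did not pass (adjusted p = 0.533 by limma).

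Cldn16 and Kcnj1, a potassium channel of the limb, belong also to a list of 15 further tested genes of inherited magnesium disorders, of which 1 was higher and 4 were lower. The lower ones were Slc12a3, Rragd, Casr, the calcium-sensing receptor, and Kcnj1. Casr went from 105 ± 15.9 to 52.6 ± 10.7 (log2 fold change -1.002, adjusted p = 0.00132 by limma), and Kcnj1 had a log2 fold change of -0.80 (adjusted p = 0.0156 by limma). Rragd, the paralog mutated in human magnesium wasting, went from 166 ± 8.04 to 94.996 ± 16.8 (log2 fold change -0.82, adjusted p = 0.000937 by limma). Rragc itself, counted from both alleles together, so that the tag does not report the edit, had a log2 fold change of -0.40 and did not pass (adjusted p = 0.0678 by limma).

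No magnesium transporter outside the set passed the test. Of 17 tested genes (other CNNM and SLC41 genes, the NIPA genes, Magt1, Mrs2 the CNNM partners Arl15 and Ptp4a1 to Ptp4a3, Tmem94 and Tmem163) 0 passed with limma, edgeR or DESeq2, 2 had an unadjusted limma p under 0.05, and their median was 0.09. Cnnm1 had the lowest log2 fold change, -0.69 (adjusted p = 0.174 by limma), and Ptp4a3 the highest, 0.30. Over this list and the other 6 lists of magnesium, EGF, pump, distal tubule and thick ascending limb genes, 83 distinct genes were tested. Of these, 16 passed (19.3%), 1 higher and 15 lower, against 3.69% of all tested genes. The lists were chosen with earlier results of these data known.

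Other kidney cell types were read beside these. Principal cell markers had 3 of 8 higher (Avpr2, Kcne1 and Hsd11b2), intercalated cell markers 3 of 8 lower, and proximal tubule markers 2 higher and 3 lower of 12. Synpo was the single podocyte marker of 6 to pass, higher, and none of 6 endothelial and 6 leukocyte markers passed with limma, edgeR or DESeq2 (1 and 2 had an unadjusted limma p under 0.05). Medians were 0.45 for principal cells, -0.18 for intercalated cells, 0.09 for proximal tubule, 0.22 for podocytes, -0.13 for endothelium and 0.17 for leukocytes.

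**Figure D4:**
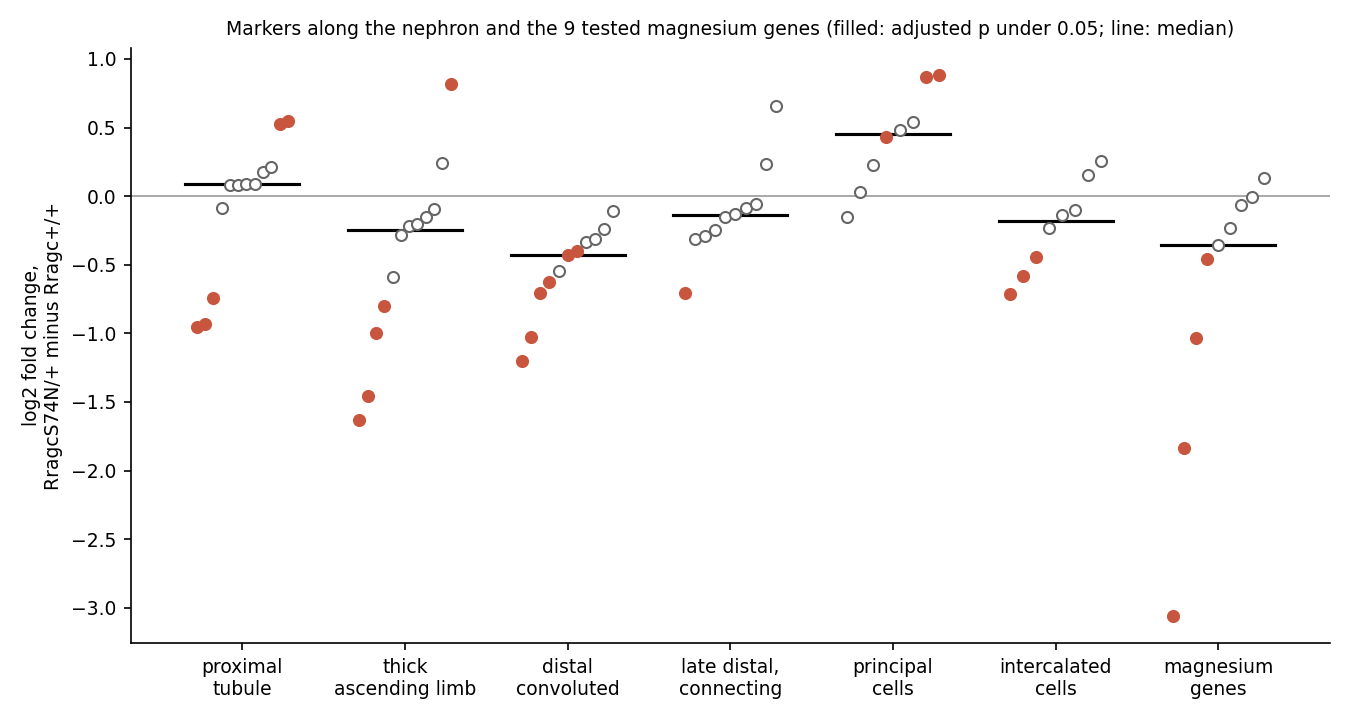
Log2 fold change, RragcS74N/+ minus Rragc+/+ (vertical axis), of the tested markers of 6 kidney cell groups and of the 9 tested magnesium genes (horizontal axis); filled points have an adjusted p under 0.05 and lines are medians. Distal convoluted tubule markers lie wholly under 0 (median -0.43), principal cell markers mostly above (0.45).

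Within a genotype the members did not vary as 1 block. After the genotype means were removed, Pearson's r over the 10 mice was 0.71 between Egf and Slc12a3, 0.74 between Egf and Egfr, 0.40 between Trpm6 and Pvalb, 0.02 between Trpm6 and Trpm7 and -0.79 between Trpm6 and Cnnm2. These are descriptions over mice of both blocks of library codes, with no test. Differences between the blocks were not removed. RragcS74N/+ mouse 5, with the highest adipose markers, had the lowest Egf (782), Slc12a3 (942) and Egfr (150) of the RragcS74N/+ mice. In Rragc+/+ the highest Egf (3479) was in mouse 2 and the highest Slc12a3 (2973) in mouse 3. The weight of RragcS74N/+ mouse 5 in the r values of Egf was not tested. Among 6847 genes with a mean of at least 100, those nearest to Trpm6 in this measure were Nqo1 (r = 0.95), Eif4a1 (0.90) and Epb41l2 (0.90), although Nqo1 was higher in RragcS74N/+ kidneys (log2 fold change 0.72). Nearest to Trpm7 were Chd1 (0.96), Ikbkb (0.94) and Safb (0.93), nearest to Egf were Fam107a, Tmem229a and Efhd1 (0.97 each), and nearest to Pvalb were Nipal3 (0.90), Tmem97 (0.89) and Insig2 (0.89). Each was picked for the highest r among so many genes over 10 mice, where high values can arise by chance.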

How the data were processed

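The authors prepared QuantSeq 3′ libraries from kidney RNA, aligned reads to GRCm39 with TopHat2 2.0.10, Bowtie 1.0.0 and SAMtools 0.1.19, counted them by strand with HTSeq 0.6.1 on GENCODE annotation, and deposited counts divided by library size factors (a signal, not raw counts; FastQC 0.11.7 was used for read quality). Of the deposited values 100% gave whole reads within 0.01 after recovery of the size factors (0.882 to 1.12). The main test was limma 3.58.1 with a mean-variance trend on log2(value + 1), over genes with at least 10 normalized counts in at least 5 mice, 5 against 5, with Benjamini-Hochberg adjustment at 0.05. The limma p-values set each genotype difference against the spread between these mice, with variances drawn toward a trend over all genes. Mice of other cohorts were not covered. Single values were compared by exact permutation over all splits of 5 and 5. edgeR 4.0.16 and DESeq2 1.42.0 on the recovered reads were alternatives. The fit was checked on made counts with known changes. There limma recovered 29.7% of changes of 0.5, 78.5% of 1 and 100% of 2 on the log2 scale. Of its calls 4.93% were false. A gene that did not pass may therefore still have changed, even by 1 on the log2 scale.

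Named genes were all 10 members, the passing genes of the other lists, Slc12a3, Rragc, Rragd and Cldn16, and the 3 genes most like each passing member; the text also names genes that did not pass, chosen after their values were seen, and some genes of the lists are not reported here. Members and lists were chosen with earlier results of these data known. Blood and urine magnesium were not analysed here.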

Additional observations from a re-analysis of the deposited data

Results flagged for a closer look

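Among 28 genes tested in each genotype (56 groups of 5 mice), 4 had 1 mouse far from the others by Dixon's criterion (0.71 for 5 samples), and chance flags about 1 in 20 groups. None was a member. Umod was lowest in RragcS74N/+ mouse 5, at 7760 normalized counts against 11868 in the next mouse. In RragcS74N/+ mouse 1 Fxyd6 was lowest, at 37.0 against 46.5, Wnk4 was highest, at 314 against 241, and Tmem52b was highest, at 1410.5 against 1205. Mice 1 and 5 are those with raised adipose markers, whose part in these values was not tested.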

How the results depend on the processing

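Trpm6, Egf and Pvalb passed in all 10 fits that left out 1 mouse and in the other 13 settings tried (pseudocount, filter, normalization, variance model, edgeR, DESeq2, block of library codes, adipose-marked mice left out), scaling to Slc12a3 apart; Trpm7 passed in 5 of 10 and 11 of 13. Over all genes 487 passed, against 291 without the trend, 832 with the block of library codes as a covariate, 480 with edgeR and 648 with DESeq2; leaving out 1 mouse gave 267 to 459 (267 without Rragc+/+ mouse 5, 285 without Rragc+/+ mouse 4), with 3 to 4 members and 12 to 16 genes of the other lists. Scaling each mouse to Slc12a3 passed 12863 genes, 8 members and 76 genes of the other lists, since it moves the median of all genes by 1.2, and turned the log2 fold changes of Trpm7 (0.74), Egf (0.16), Cnnm2 (0.84), Fxyd2 (1.13), Kcnj10 (0.97) and Kcnj16 (1.19) positive. Fxyd2 turned to 0.0136 with that block as a covariate. Kcnj16 ranged from -0.0469 to 0.0276 when 1 mouse was left out (0.0276 without Rragc+/+ mouse 3; 0.01, 0.02 and 0.0038 without RragcS74N/+ mice 1, 2 and 4). The cause was not tested. No paired analysis was possible because the labels give no replicate numbers shared between the genotypes. For Trpm6 and Pvalb, 12 to 28 reads per RragcS74N/+ library limit the precision.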
